A study of Mus musculus with 6 samples.

Results

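Immediate early transcription factors were examined in white adipose tissue of mice lacking KSR2. The set holds 10 genes, Fos, Fosb, Jun, Junb, Maff, Atf3, Egr1, Egr2, Egr3 and Nr4a1, chosen by gene symbol from the 18193 genes that the arrays measured with a probe set of 1 gene. All 10 were measured, by 13 probe sets. Where a gene had 2 probe sets, the brighter one over all 6 arrays was taken as its main value.

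The study used 3 WT and 3 KSR2-/- mice, all of the strain C57Bl6, female and 6 months old. Total RNA from the white fat of each mouse was hybridized to 1 Affymetrix array, and the question was which genes differ between the genotypes. KSR2 is a scaffold that holds the kinases of the Raf-MEK-ERK cascade together, and its name stands for kinase suppressor of Ras. The sources used here name neither the fat depot nor the deleted stretch of the gene. Values are log2 intensities, and a difference of 1 log2 is a 2-fold difference. Arrays are called WT 1 to 3 and knockout 1 to 3. The animal numbers in the labels form a higher-numbered series (WT 1 and 2, knockouts 1 and 2) and a lower-numbered series (WT 3 and knockout 3).

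Across the series, the precision is limited by 3 arrays per genotype, and the standard error of a genotype difference had a median of 0.22 log2 over genes. The median intensity of an array was 22.4 to 24.2 on the linear scale. The excess of 3' over 5' signal at the Gapdh control probes, which grows as RNA degrades, was 4.18 log2 on WT 3 and 0.07 to 1.46 on the other arrays. The same excess for Actb was 2.59 on WT 3 and 1.02 to 1.63 elsewhere. Of the adipocyte markers looked at, 8 of 10 were measured, and all 8 lay above the median gene on the mean of the 6 arrays, with Adipoq between 12.70 and 13.58 on every array. The Ksr2 probe set was dim in both genotypes (4.42 ± 0.35 in WT and 4.34 ± 0.12 in KSR2-/-, SD, n = 3 each), so it does not check the genotype labels.

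Immediate early genes are transcribed within minutes of a stimulus from factors that are already present in the cell, without new protein synthesis. The ERK cascade drives many of them through the serum response factor SRF, which binds CArG boxes, and its partners of the ELK family, which bind beside SRF. Cyclic AMP drives others through CREB, which binds the sequence TGACGTCA or its core TGACG. FOS and JUN proteins pair through leucine zippers to form AP-1, EGR proteins are zinc finger factors, and NR4A1 is an orphan nuclear receptor. In fat, these genes respond to growth factors, hormones and inflammatory signals, and they are also induced by the handling of tissue.

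The promoters of the members whose values stood furthest apart between the genotypes are shown first, because such stimuli act through sites near genes. Sequences are from RefSeq (GRCm38.p6), which held start sites for 8 of the 10 members in 14 windows. Egr1 and Egr3 were not matched. The Fos, Atf3 and Junb sequences are the 250 bases before the start site. Capitals mark TGACG on either strand and the TATA sequence TATAAA. Fos lies at chr12:85473640-85473889 on the plus strand, Atf3 at chr1:191183334-191183583 on the minus strand and Junb at chr8:84978749-84978998 on the minus strand.
Fos: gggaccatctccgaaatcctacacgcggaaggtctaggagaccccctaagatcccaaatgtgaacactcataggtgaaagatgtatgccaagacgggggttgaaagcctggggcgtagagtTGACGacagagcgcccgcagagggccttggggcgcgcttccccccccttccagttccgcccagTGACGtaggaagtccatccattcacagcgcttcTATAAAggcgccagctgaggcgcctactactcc
Atf3: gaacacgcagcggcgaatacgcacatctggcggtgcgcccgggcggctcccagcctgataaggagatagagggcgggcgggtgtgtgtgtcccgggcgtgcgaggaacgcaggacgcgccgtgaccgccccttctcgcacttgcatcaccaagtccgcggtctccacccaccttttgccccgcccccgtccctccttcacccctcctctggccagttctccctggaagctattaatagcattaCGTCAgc
Junb: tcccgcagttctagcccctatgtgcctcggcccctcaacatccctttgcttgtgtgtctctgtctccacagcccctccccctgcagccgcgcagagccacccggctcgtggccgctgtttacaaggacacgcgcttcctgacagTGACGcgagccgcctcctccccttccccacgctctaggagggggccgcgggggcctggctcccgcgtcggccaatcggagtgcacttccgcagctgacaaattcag

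For Egr2 and Maff, which have several start sites, 30 bases around the site are shown. Capitals mark a CArG box in Egr2 and TGACGTCA in Maff. The Egr2 sites lie at chr10:67537484-67537513 and chr10:67537787-67537816 and the Maff site at chr15:79347480-79347509, all on the plus strand.
Egr2 upstream site: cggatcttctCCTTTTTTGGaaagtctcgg
Egr2 downstream site: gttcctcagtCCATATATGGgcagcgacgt
Maff: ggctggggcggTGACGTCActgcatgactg

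Motifs were searched on both strands of the 250 bases before each start site, TATAAA on the gene's strand alone. A CArG box was found in 4 of the 14 member windows, all of Egr2, where 3 overlapping windows hold the same downstream site, and in 1.47% of the 32851 windows of all genes. TGACGTCA was found in 1 Maff window and in 1.55% of all windows. The core TGACG, which TGACGTCA contains, was found in 10 of the 14 member windows, which belong to 7 members, Atf3, Egr2, Fos, Fosb, Junb, Maff and Nr4a1, and in 17.8% of all windows. Of these 10 windows, 3 are overlapping ones of Egr2. In Fos it began at bases -129 and -66 and TATAAA at base -33, counted back from the start site. The ETS-type sequence CCGGAA was found in 2 of the 14 member windows (Egr2 and Nr4a1) and in 12% of all windows, and the EGR-type sequence GCGNGGGCG in 3 of the 14 (Fosb, Maff and Nr4a1) and in 4.70% of all windows. No member window held the AP-1 sequence TGACTCA (4.46% of all windows) or the NR4A sequence AAAGGTCA (1.34%). No motif searched was found in the Jun window. These matches describe letters in a short window. A site further than 250 bases upstream, or one that departs from the searched letters, was not seen, and Egr1 and Egr3 were not searched. A missing match therefore does not mean that a gene lacks the site.

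In KSR2-/- fat, Atf3, Egr2 and Fos were the members with the widest differences, at 6.37, 6.35 and 4.95 times the WT level, and Junb, Maff and Jun were 2.69, 1.97 and 1.63 times the WT level. These differences did not pass limma over all genes, and for Atf3, Egr2 and Fos they came mostly from knockouts 1 and 2. Egr1 and Nr4a1 differed by 0.58 and 0.26 log2 and the dim Fosb by -0.07, none of them past the test, and the probe sets of Egr3 disagreed in sign. By size of difference Atf3 ranked 22nd, Egr2 23rd and Fos 46th among the 18193 genes.

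Of the 10 members, 8 had a positive difference, against 44.4% of all genes, and the median difference of the members was 0.84 log2, against -0.04 for all genes. At an adjusted limma p under 0.05, 0 of 10 members were called, against 0.0055% of all genes, which is 1 gene. At an unadjusted p under 0.05, 6 members were higher (Fos, Jun, Junb, Egr2, Atf3 and Maff) and 0 lower, where 6.71% of all genes were higher and 5.38% lower. The KSR2-/- and WT values did not overlap in 5 members, Junb, Egr2, Atf3, Nr4a1 and Maff, all of them higher. Over all genes, 16.3% did not overlap, 7.72% higher and 8.56% lower. Without knockout 3, limma called 3 members, Fos, Egr2 and Atf3, all higher, where 4.49% of all genes were called, and 3.16% called higher. In the higher-numbered series alone, limma called 3 members higher, against 2.03% of all genes. These settings leave out knockout 3, which lacked most of the rise in Fos, Egr2 and Atf3, so their calls are not further support. For every list below, calls without knockout 3 stand against the same 4.49% of all genes and are not further support either. Unadjusted counts of those lists stand against the same 6.71% higher and 5.38% lower. Knockouts 1 and 2 lay above the 4 other arrays in 7 members, against 11.2% of all genes. This split is the one that Fos, Egr2 and Atf3 show, so the count is a description and not further support. In bulk tissue, more cells that express a gene and more RNA of it per cell cannot be told apart.

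**Figure D1:**
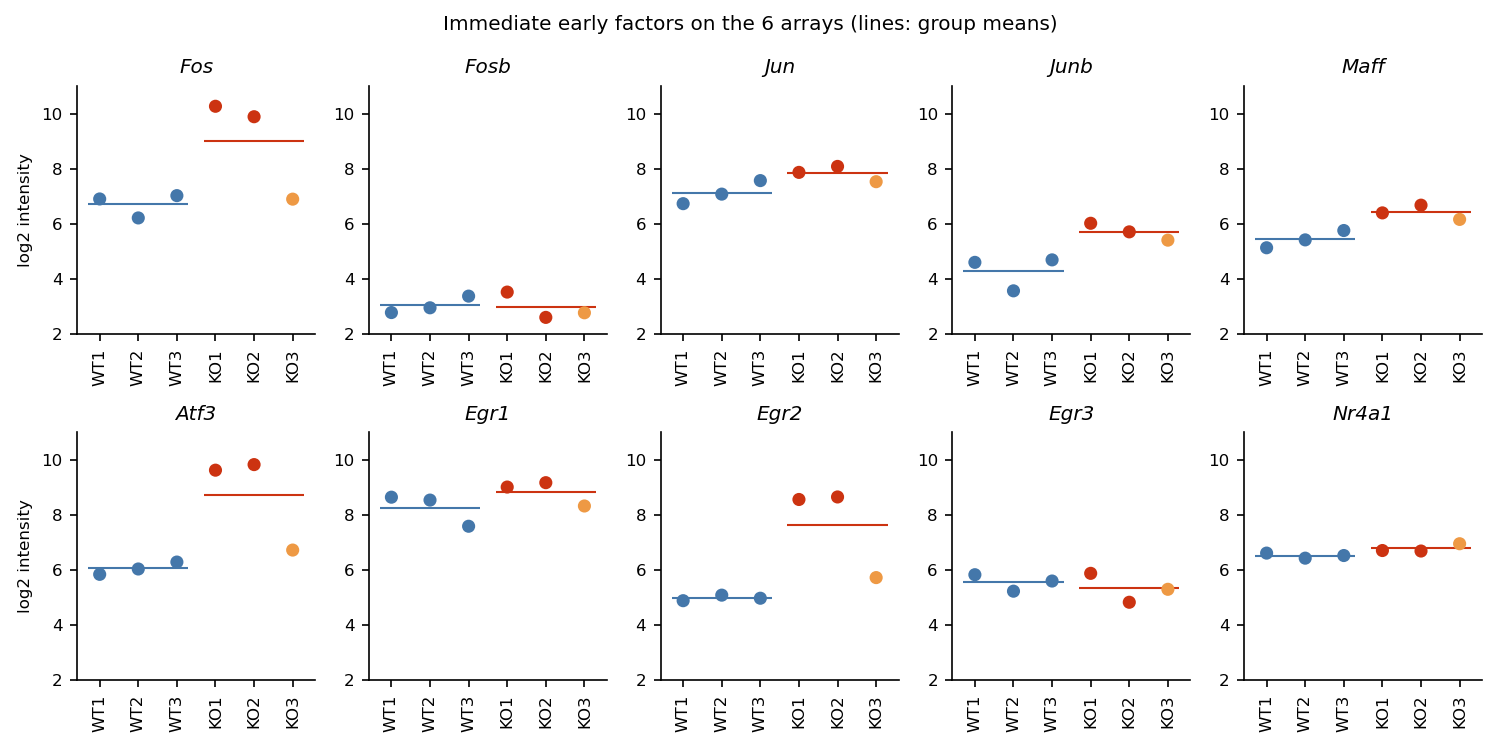
Log2 intensity (vertical axis) of the 10 members on the 3 WT (blue) and 3 KSR2-/- arrays (red, with knockout 3 in orange), with group means as lines. Fos, Atf3 and Egr2 stand high on knockouts 1 and 2. Knockout 3 lies far lower, within the WT range for Fos and above it for Atf3 and Egr2.

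Fos, the founding FOS protein of AP-1, measured 6.89, 6.20 and 7.02 on WT 1 to 3 and 10.26, 9.88 and 6.89 on knockouts 1 to 3. Knockouts 1 and 2 were far above every WT array, and knockout 3 lay within the WT range, so the groups overlapped. The difference was 2.31 log2 (SE 0.84, 95% interval 0.33 to 4.28, limma adjusted p = 0.353), and the two-sided exact permutation p was 0.3, where 3 against 3 arrays cannot go below 0.1. Without knockout 3, Fos rose by 3.37 log2 (SE 0.29, limma adjusted p = 0.00494), a 10.3-fold difference.

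Fosb, its close relative, gave a dim signal of 2.77, 2.94 and 3.36 in WT and 3.51, 2.59 and 2.76 in KSR2-/-. The groups overlapped fully, and the difference was -0.07 log2 (SE 0.29, 95% interval -0.74 to 0.60, limma adjusted p = 0.963). Its mean over the arrays was at the 12.4th percentile of gene means, so a low level could not be measured apart from background by this probe set.

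Jun, the main partner of FOS, measured 6.72, 7.07 and 7.56 in WT and 7.86, 8.08 and 7.52 in KSR2-/-. WT 3 and knockout 3 were nearly level, and the other knockouts lay above every WT array. The difference was 0.70 log2 (SE 0.26, 95% interval 0.09 to 1.31, limma adjusted p = 0.360). A second Jun probe set gave a smaller difference of 0.50 log2 (SE 0.40), with WT 3 at 7.87 above knockouts 1 and 3.

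Junb, a JUN protein with weaker activating power than JUN, measured 4.59, 3.55 and 4.68 in WT and 6.01, 5.70 and 5.40 in KSR2-/-. Every knockout array lay above every WT array, knockout 3 included. The signal was below that of the median gene, with a mean over the arrays of 4.99 log2, at the 39.6th percentile of gene means. The difference was 1.43 log2 (SE 0.33, 95% interval 0.64 to 2.21, limma adjusted p = 0.234, exact permutation p = 0.1).

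Maff, a small MAF protein that lacks an activation domain of its own, measured 5.12, 5.41 and 5.75 in WT and 6.39, 6.67 and 6.15 in KSR2-/-, and the groups did not overlap. The difference was 0.98 log2 (SE 0.22, 95% interval 0.45 to 1.50, limma adjusted p = 0.227, exact permutation p = 0.1). Among the members it had the smallest unadjusted limma p, at 0.00315, followed by Junb at 0.00348. The mean of Maff over the arrays, 5.91 log2, was at the 49.5th percentile of gene means, just below the median gene.

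Atf3, a stress-induced factor that pairs with JUN proteins and often represses its targets, measured 5.84, 6.04 and 6.29 in WT and 9.63, 9.83 and 6.73 in KSR2-/-. All knockout arrays were above all WT arrays, but knockout 3 was only 0.67 log2 above the WT mean, against 3.57 and 3.78 for knockouts 1 and 2. The difference was 2.67 log2 (SE 0.77, 95% interval 0.85 to 4.50, limma adjusted p = 0.277, exact permutation p = 0.1). Without knockout 3, the knockout array that rose least, Atf3 rose by 3.67 log2 (SE 0.21, limma adjusted p = 0.00149), a 12.8-fold difference. As for Fos, this fit is not further support. Without knockout 1 or knockout 2 the difference was 2.22 or 2.12 log2 (limma adjusted p = 0.617 and 0.758).

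Egr2 (Krox-20), a zinc finger factor known for myelination and for early adipocyte differentiation, measured 4.89, 5.09 and 4.98 in WT and 8.57, 8.66 and 5.73 in KSR2-/-. The WT arrays lay within a narrow band, with an SD of 0.10, and every knockout array was above it. The difference was 2.67 log2 (SE 0.74, 95% interval 0.92 to 4.41, limma adjusted p = 0.264, exact permutation p = 0.1). Without knockout 3, the knockout array that rose least, Egr2 rose by 3.63 log2 (SE 0.17, limma adjusted p = 0.000936), a 12.4-fold difference. As for Fos, this fit is not further support. Without knockout 1 or knockout 2 the difference was 2.21 or 2.16 log2 (limma adjusted p = 0.609 and 0.753). The other Egr2 probe set gave 4.58, 4.56 and 4.52 in WT and 7.73, 8.50 and 5.22 in KSR2-/-, a difference of 2.60 log2, so both probe sets ordered the genotypes alike.

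Egr1, the most widely induced EGR factor, measured 8.65, 8.54 and 7.59 in WT and 9.02, 9.18 and 8.33 in KSR2-/-. Knockout 3 lay below WT 1 and 2, and WT 3, the array with the large Gapdh difference, was the lowest. The difference was 0.58 log2 (SE 0.35, 95% interval -0.24 to 1.40, limma adjusted p = 0.585). This interval includes no difference and also a 2-fold difference upward. Without WT 3 the difference was 0.24 log2, and with the Gapdh difference as a covariate it was 0.41.

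Egr3 was the member whose probe sets disagreed in sign. The main one measured 5.83, 5.23 and 5.60 in WT and 5.88, 4.83 and 5.30 in KSR2-/-, a difference of -0.22 log2 (SE 0.30, limma adjusted p = 0.850) with overlapping groups. The other measured 5.54, 4.75 and 4.70 in WT and 6.51, 5.88 and 4.93 in KSR2-/-, a difference of 0.78 log2 (SE 0.43), with knockouts 1 and 2 the highest arrays. Averaged over both probe sets the difference was 0.28 log2, so no direction is given for Egr3.

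**Figure D2:**
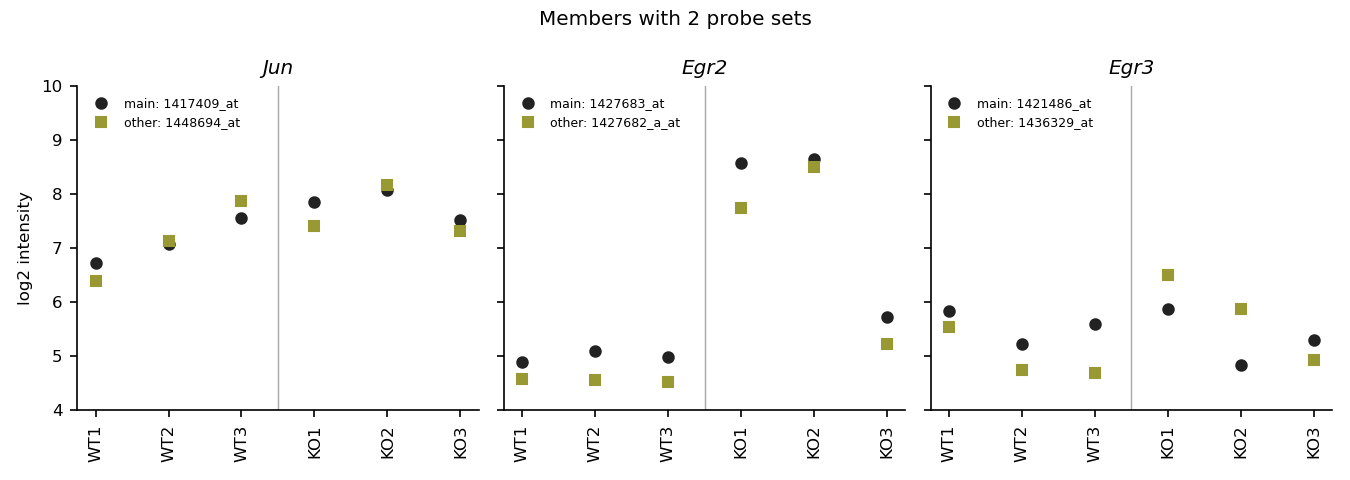
Log2 intensity on each array for Jun, Egr2 and Egr3, the members with 2 probe sets (black circles, the main one, and olive squares, the other). The Egr2 probe sets run in parallel, and in Egr3 knockout 2 is the lowest array on the main probe set (4.83) and the second highest on the other (5.88).

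Nr4a1 (Nur77), a nuclear receptor induced by cyclic AMP in fat, measured 6.62, 6.43 and 6.53 in WT and 6.71, 6.69 and 6.96 in KSR2-/-. The groups did not overlap, but the step was small, and knockout 3 was here the highest array. The difference was 0.26 log2 (SE 0.16, 95% interval -0.11 to 0.63, limma adjusted p = 0.582, exact permutation p = 0.1).

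**Figure D3:**
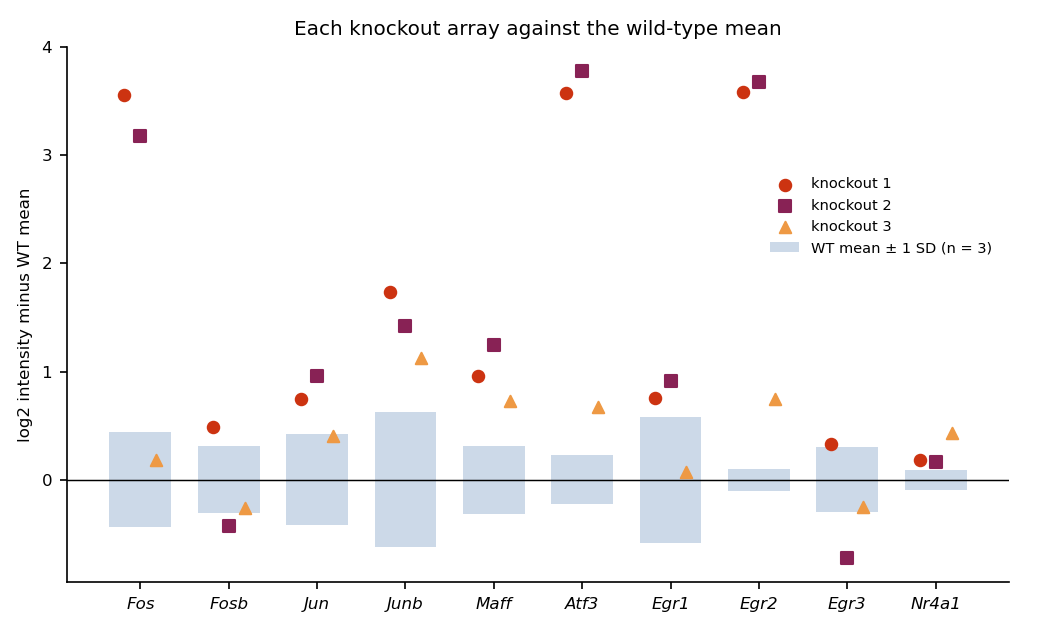
Log2 intensity of each knockout array minus the WT mean for the 10 members, with the WT mean ± 1 SD (n = 3) as a pale bar. Knockouts 1 and 2 lie 3.18 to 3.78 above the WT mean for Fos, Atf3 and Egr2, and knockout 3 lies 0.18 to 0.74 above it.

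The members differed in how evenly the knockout arrays moved. For Junb the shifts from the WT mean were 1.74, 1.42 and 1.12 log2 on knockouts 1 to 3, and for Maff 0.96, 1.24 and 0.73. For Fos they were 3.56, 3.18 and 0.18. Egr2 gave 3.58, 3.67 and 0.74. Within the higher-numbered series the KSR2-/- minus WT difference was 3.52 log2 for Fos, 3.62 for Egr2, 3.79 for Atf3, 1.78 for Junb, 1.26 for Maff and 1.07 for Jun. Within the lower-numbered pair it was -0.13 for Fos, 0.75 for Egr2, 0.44 for Atf3, 0.72 for Junb, 0.40 for Maff and -0.04 for Jun. That pair holds 1 mouse of each genotype and WT 3 is the array with the large Gapdh difference, so the lower-numbered values have no replicate check. Egr1 was higher in both, by 0.50 and 0.74 log2, and so was Nr4a1, by 0.18 and 0.43.

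**Figure D4:**
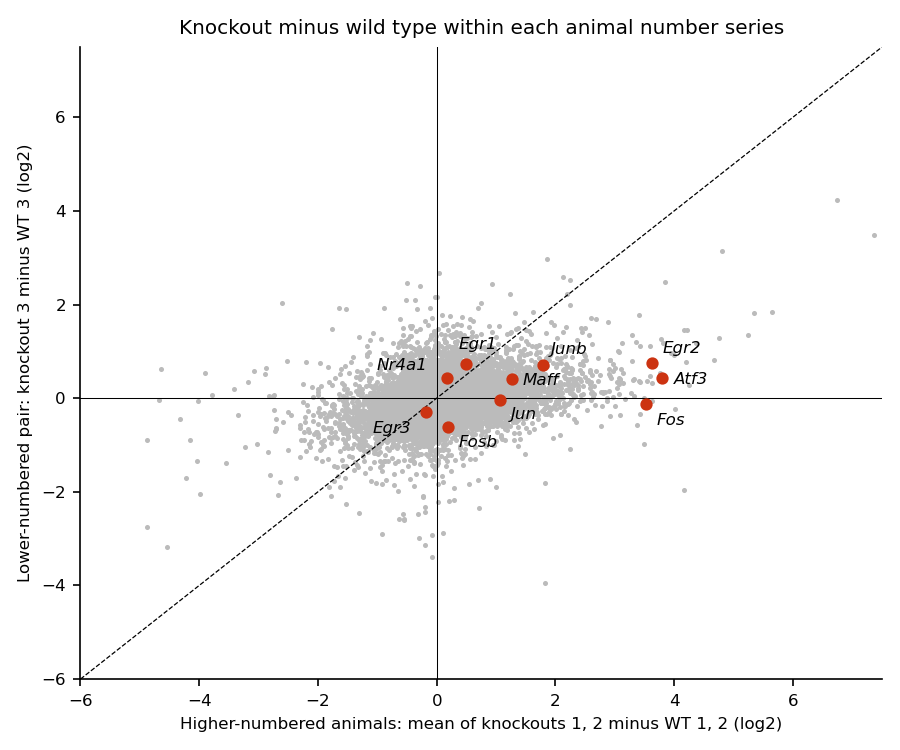
KSR2-/- minus WT log2 difference of every gene (grey) and of the 10 members (red) in the higher-numbered animals (horizontal axis) and in the lower-numbered pair (vertical axis), with equal differences on the dashed line. Fos, Egr2 and Atf3 lie far to the right (3.52 to 3.79) and near 0 on the vertical axis (-0.13 to 0.75).

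A limma term for a different effect of genotype in the animal number series, added after the values were seen, gave a lower-minus-higher value of -3.65 log2 for Fos, -3.35 for Atf3 and -2.87 for Egr2. None of these passed over all genes, with limma adjusted p of 0.305, 0.260 and 0.283. No gene of the 18193 had an adjusted interaction p under 0.05 by limma, and 1087 had an unadjusted one. The fit with the series as a block, which leaves the differences as they are, gave adjusted p of 0.254 for Fos, 0.177 for Egr2 and 0.195 for Atf3.

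Of the 11 paralogs looked at, close relatives of the members, 8 were higher and 3 lower, with a median difference of 0.30 log2, and 0 were called by limma over all genes, with or without knockout 3. At an unadjusted limma p under 0.05, 3 were higher. Fosl1 (FRA1) measured 4.29, 4.18 and 4.29 in WT and 5.53, 5.00 and 4.68 in KSR2-/-, a difference of 0.82 log2 (SE 0.23). Mafg, a small MAF protein like Maff, differed by 0.75 (SE 0.23) and Jund, the JUN protein that is expressed without a stimulus, by 0.54 (SE 0.21). These 3 had groups that did not overlap.

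The other FOS paralog, Fosl2 (FRA2), differed by 0.67 log2 (SE 0.37) with overlapping groups. Among the NR4A receptors, Nr4a3 differed by -0.39 (SE 0.18), with all KSR2-/- arrays below all WT arrays, and Nr4a2 by -0.0014 (SE 0.20). Egr4 differed by -0.21 (SE 0.17) and Mafk by 0.02 (SE 0.16). Of the AP-1 relatives with a repressive role, Jdp2 differed by 0.32 (SE 0.41), Batf by 0.08 (SE 0.27) and Batf3 by 0.30 (SE 0.46). Limma adjusted p was 0.275 or above for the 11 paralogs.

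Of 27 other primary response genes, 22 were higher and 5 lower, with a median of 0.28 log2. Limma called 0 over all genes, and at an unadjusted p under 0.05 there were 5 higher and 1 lower. Ccn1 (Cyr61), a matricellular protein and SRF target, measured 6.44, 5.74 and 6.64 in WT and 8.06, 7.60 and 6.84 in KSR2-/-, a difference of 1.22 (SE 0.36, limma adjusted p = 0.284). Ier5 differed by 0.97 (SE 0.38), the stress gene Gadd45b by 0.86 (SE 0.28) and the kinase Plk3 by 0.44 (SE 0.14). Plk2, a kinase gene, was the member of this list called without knockout 3, where it rose by 1.78 log2 (limma adjusted p = 0.0100). The gene lower at an unadjusted p was Ptgs2, cyclooxygenase 2, named here after its values were seen. Ptgs2 measured 7.29, 8.00 and 4.03 in WT and 4.34, 4.11 and 4.24 in KSR2-/-, so only WT 1 and 2 stood high.

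Among factors and kinases upstream, 14 of the 20 listed were measured by a probe set of 1 gene, with 10 higher, 4 lower and a median of 0.19 log2. None was called over all genes by limma, and 4 were higher and 0 lower at an unadjusted p under 0.05. Mrtfa (MRTF-A), an SRF coactivator released when actin polymerizes, measured 6.27, 6.32 and 6.32 in WT and 7.11, 7.37 and 7.15 in KSR2-/-. The difference of 0.90 log2 (SE 0.15, limma adjusted p = 0.193) was as large on knockout 3 as on knockout 1. Elk3, an ETS factor that binds beside SRF, differed by 0.70 (SE 0.23), Srf itself by 0.60 (SE 0.20) and the p38 target kinase Mapkapk2 by 0.66 (SE 0.22). Without knockout 3, limma called Mrtfa (0.93, adjusted p = 0.0424) and Elk3 (0.93, adjusted p = 0.0454).

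The 10 partners and corepressors had a median difference of 0.25 log2, with 7 higher and 3 lower. Limma called 0 over all genes, and 1 was higher at an unadjusted p under 0.05. Nab2, a corepressor that EGR factors induce and that then restrains them, measured 5.69, 5.81 and 6.81 in WT and 7.00, 7.21 and 6.79 in KSR2-/- (difference 0.89, SE 0.31, limma adjusted p = 0.332). Atf4, which drives Atf3 under amino acid and endoplasmic reticulum stress, differed by 0.36 (SE 0.18), Atf7 by -0.30 (SE 0.17) and Atf2 by -0.34 (SE 0.20). Bach1, a haem-sensing repressor that pairs with small MAF proteins, was called without knockout 3 (0.99, limma adjusted p = 0.0325).

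Of 15 genes known as targets of AP-1 or EGR factors, 13 were measured, 11 higher and 2 lower, with a median of 0.87 log2. Limma called 0 over all genes, and at an unadjusted p under 0.05 there were 8 higher and 2 lower. Ccl2, a monocyte-attracting chemokine, measured 6.32, 7.00 and 6.78 in WT and 9.59, 9.50 and 8.39 in KSR2-/-, a difference of 2.46 (SE 0.35, limma adjusted p = 0.152). Timp1, an inhibitor of matrix proteases, differed by 2.95 (SE 0.64) and the collagenase Mmp13 by 2.22 (SE 0.49). Mmp9, a gelatinase, differed the other way, by -1.25 (SE 0.32). Without knockout 3, limma called 7 of the targets, Mmp13, Plaur, Timp1, Ccnd1, Ccl2, Cd44 and Hmox1, all higher. That fit called 3.16% of all genes higher and, as for Fos, is not further support. Several of these targets are also expressed by macrophages.

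Markers of cell types were read on the same arrays. Of 10 macrophage markers, all measured, 9 were higher and 1 lower, with a median difference of 1.05 log2. Their mean level lay 1.40, 1.35 and 0.37 above the WT mean on knockouts 1 to 3, and that of the 10 early factors lay 1.59, 1.42 and 0.38 above it. The summed linear intensity of the macrophage markers was 10288 to 10390 in WT and 12689 to 26342 in KSR2-/-, and the dimmest, Itgam, averaged 5.68 log2 over the 6 arrays, with 3.77 on WT 3 and 7.68 on knockout 1. Limma called 0 of them over all genes, 6 at an unadjusted p under 0.05 (all higher) and 5 without knockout 3, Adgre1, Cd68, Csf1r, C1qb and Lyz2. The fit without knockout 3, where 4.49% of all genes were called, is not further support. The part of the macrophage markers in the differences of the early factors was not tested.

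Of the 7 neutrophil and mast cell markers measured of 8, 6 were higher, with a median of 0.58 log2, summed intensities of 699 to 1015 in WT and 1067 to 2923 in KSR2-/-, and shifts of 0.86, 1.10 and 0.15 on knockouts 1 to 3. Without knockout 3, limma called 1 of these, S100a8, higher. The dimmest, Csf3r, averaged 4.94 log2. Of the adipocyte markers 6 were lower and 2 higher, with a median of -0.36 log2. Their summed intensities were 43858 to 52053 in WT and 31296 to 53957 in KSR2-/-, with shifts of -0.73, -0.39 and 0.37. Without knockout 3, limma called 2 of them, Pnpla2 and Retn, lower. Lep went the other way, with 9.42, 11.13 and 11.76 in WT and 11.80, 12.40 and 12.46 in KSR2-/- (difference 1.45, SE 0.57). The mean levels of the endothelial (median difference 0.24), stromal progenitor (-0.24) and T and B lymphocyte markers (0.34) lay within the WT range on knockouts 1 and 2. On knockout 3 the endothelial level, 7.16, was just above the WT range of 6.45 to 7.13, and the stromal and lymphocyte levels lay within theirs. The lymphocyte range was wide because of WT 1 (6.36, against 4.91 and 5.05 on WT 2 and 3). Muscle markers, 2 higher and 5 lower, shifted by -1.22, -1.05 and 0.30 on knockouts 1 to 3. Their mean level was 6.0, 6.6 and 7.8 on WT 1 to 3 and 5.6, 5.7 and 7.1 on knockouts 1 to 3, so WT 3 raised the WT mean. Without knockout 3, limma called 2 of them, Myh11 and Cnn1, lower, while Acta2 and Acta1 were the higher ones (0.40 and 0.25 over all arrays). Mesothelial markers shifted by -0.54, -0.27 and 1.44, and the 2 erythroid markers measured by 0.34, 0.39 and 0.25. Mammary epithelial markers shifted by -0.76, -0.49 and 0.56, but WT 3 alone raised their WT mean. Their mean level was 4.4, 4.6 and 6.1 on WT 1 to 3 and 4.3, 4.5 and 5.6 on knockouts 1 to 3. Heat shock genes, which tissue handling also induces, were 7 higher and 3 lower of 10, with a median of 0.16 log2 and shifts of 0.31, 0.35 and 0.17. Limma called 0 of them with or without knockout 3, and 1 was higher at an unadjusted p under 0.05, Hspa5, the endoplasmic reticulum chaperone, with a difference of 0.76 (SE 0.21). The part of these lists, and of the Gapdh difference on WT 3, in the differences of the early factors was not tested.

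**Figure D5:**
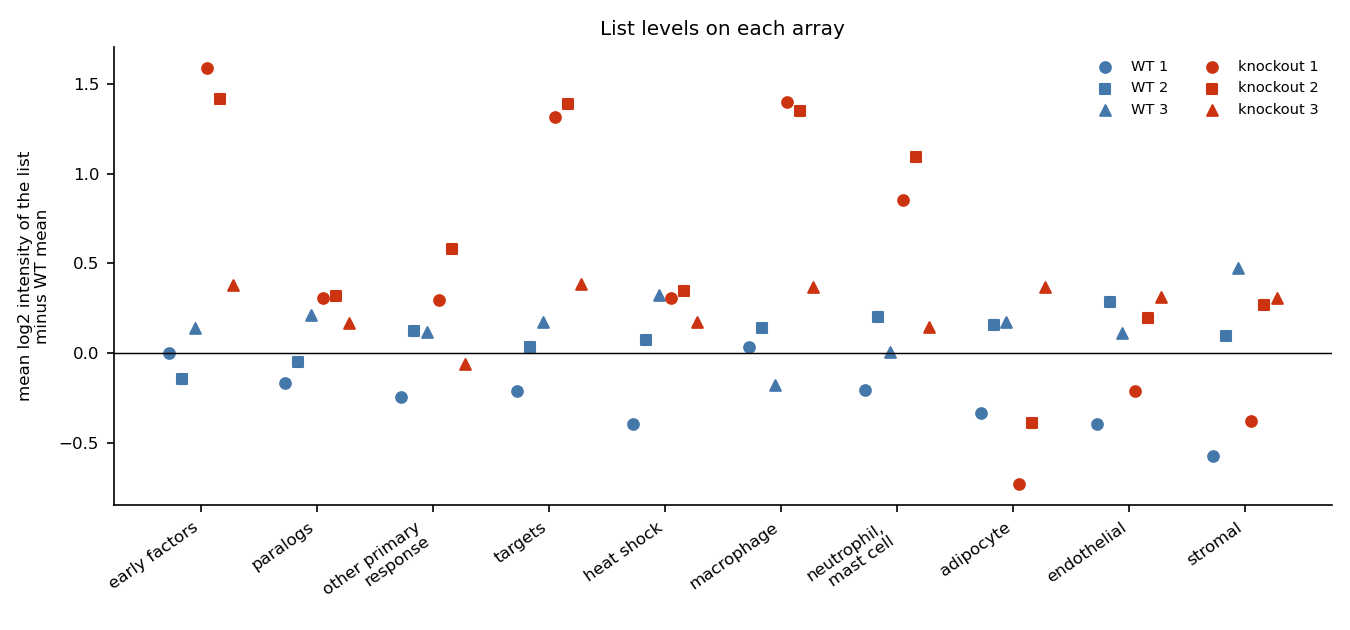
Mean log2 intensity of 10 gene lists on each array minus the mean of the 3 WT arrays (WT in blue, KSR2-/- in red, marker shape by array number). The early factors, their targets and the macrophage markers stand 1.32 to 1.59 above the WT mean on knockouts 1 and 2 and 0.37 to 0.38 above it on knockout 3.

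The genes most like the mean of the early factors over the 6 arrays, among 2322 genes of at least median level and an SD of at least 0.5 log2, were Btk, Lrrfip1, Tnfaip2, Snx8, Atp6v1b2 and Mfsd11. Their Pearson correlation with that mean was 0.996 to 0.998, given as a description, since knockouts 1 and 2 stand apart from the 4 other arrays in each of them. Btk, a kinase of B cells and myeloid cells, measured 5.38, 5.19 and 5.56 in WT and 7.43, 7.20 and 5.71 in KSR2-/-. Tnfaip2, a gene induced by tumour necrosis factor, differed by 1.98 log2 (SE 0.46) and Atp6v1b2, a subunit of the vesicular proton pump, by 1.30 (SE 0.33). Differences of the other 3 were 1.03 for Lrrfip1, 1.16 for Snx8 and 0.83 for Mfsd11, and limma adjusted p over the 6 genes was 0.234 or above.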

How the data were processed

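The authors deposited intensity values made with RMA, per the submitters' processing notes, which give no version. The scale is linear by the values themselves. RMA normalizes all arrays together. Log2 was taken with no pseudocount, since the lowest value was 2.96. Of 45101 probe sets, 34945 had 1 gene symbol, and 34741 of these were matched by gene identifier to RefSeq symbols of GRCm38.p6. Each gene was represented by its brightest probe set, which left 18193 genes. The genotypes were compared by limma (version 3.58.1, R 4.3.3; lmFit, eBayes, two-sided, Benjamini-Hochberg over all genes, threshold 0.05, prior degrees of freedom 3.06), after the procedure was tested on simulated data. Single members were also compared by an exact permutation test over arrays. Cell type and pathway lists are described by counts and medians. The named genes are the 10 members, their paralogs, up to 4 genes of each other list by smallest p, and the 6 most like the members. Plk2, Bach1, Ptgs2, Lep, Acta1, Acta2 and the target and marker genes called without knockout 3 fall outside that rule. They were chosen after their values were seen. Members, lists and tests were chosen with earlier results of these data known. Replicates are numbered in accession order and were not paired.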

Additional observations from a re-analysis of the deposited data

Results flagged for a closer look

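Fos and Jun were higher in KSR2-/- on both knockouts of the higher-numbered animals and nearly level in the lower-numbered pair. The differences in that pair were -0.13 log2 for Fos and -0.04 for Jun, smaller than the WT SD of 0.44 and 0.42. They were flagged because the sign differed, but values this small give no direction. WT 3 of that pair is the array with the large Gapdh difference. The lower-minus-higher difference of the genotype effect was -3.65 log2 for Fos (limma adjusted p = 0.305) and -1.11 for Jun (limma adjusted p = 0.784). Neither passed over all genes, and the lower-numbered series holds 1 mouse per genotype.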

How the results depend on the processing

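With 3 arrays per genotype only large and even differences can be called. The count of genes called over the whole table, 1, was 12 with a filter on dim genes, 0 with every probe set fitted, 2 with quantile normalization repeated, 16 with median centring, 10 with an intensity trend, 0 with a block for the animal number series, 6 with the Gapdh difference as a covariate and 487 in the higher-numbered series only, and it ran from 0 to 816 with 1 array left out, the highest without knockout 3. Members called numbered 3 in the higher-numbered series only and 0 to 3 with 1 array left out, again 3 only without knockout 3, and 0 in the other settings. The members with groups that did not overlap numbered 8 in the higher-numbered series only and 5 to 8 with 1 array left out. Fewer arrays separate more easily, and leaving out an array cannot make separate groups overlap. These counts therefore do not show a stronger difference, and the share over all genes was not taken in these settings. The count was 4 with quantile normalization repeated and 3 under the filter, which keeps 6 of the 10 members. The filter leaves out Fosb, Junb, Egr3 and Maff. The median difference of the members kept was 1.50 log2. Egr3 turned to 0.28 as a mean of probe sets, and with 1 array left out it ran from -0.49 to 0.036, positive only without knockout 2. Fosb turned to 0.20 in the higher-numbered series only, and with 1 array left out it ran from -0.35 to 0.11, positive without WT 3, knockout 2 or knockout 3. The causes were not tested. No other member changed direction in these settings. No paired analysis was possible because the labels give no shared replicate numbers.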
